A study of Mus musculus with 4 samples.

Results

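Transcripts of dendritic cells and macrophages were followed in RNA from sorted iNKT cells of the mouse thymus, the invariant natural killer T cells that see lipid antigens held by CD1d. The set was 40 genes listed by name, all of which were found among the 53715 gene IDs of the count table, and it left out the MHC class II genes. The names were chosen with the genotype contrast of these libraries already known. Of the 40, 11 (Lyz2, Csf1r, Cd209a, Cd209d, Cd209e, Mgl2, Fcgr2b, Ccl9, Il13ra1, Ptpro and Fstl1) were already known to be higher in these knockout libraries when the set was named. The other 29 had not been described as higher, but they were named with the same contrast known and are no independent subset. Levels, fold changes and calls of the 40 genes in this contrast are therefore a description and not evidence for a change of the cell types they mark.

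The study asks how iNKT cells develop and act without METTL3, the enzyme that methylates adenosines of mRNA to m6A. All cells came from thymus of C57BL/6 mice aged 6 to 8 weeks and were sorted as 7AAD- (live), CD1d tetramer positive and TCRβ positive. The controls were WT (2 libraries), and the other group was Mettl3fl/flCD4-cre (2 libraries), called the knockout here, in which a floxed Mettl3 gene is deleted by Cre recombinase under the control of Cd4, a gene that T lineage cells switch on as CD4+CD8+ thymocytes. The library method was Smart-seq2, which copies whole transcripts and keeps no record of strand. The labels do not say whether WT mice carried the floxed allele or Cre, nor whether the libraries of a genotype came from separate or pooled animals, so the spread behind each p-value is that between these libraries and may be technical.

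Dendritic cells and macrophages are among the antigen-presenting cells of the thymus. Dendritic cells display antigen to developing T cells, and macrophages clear the many thymocytes that die there. Both arise from progenitors that depend on the transcription factor PU.1 (Spi1), with the cytokine receptors FLT3 and CSF1R directing dendritic cell and macrophage growth. Conventional dendritic cells fall into the cDC1 lineage, marked by XCR1 and CLEC9A, and the cDC2 lineage, marked by SIRPα and often by C-type lectins of the CD209 and MGL families, while plasmacytoid dendritic cells carry Siglec-H.

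Levels are CPM (counts scaled to a library total of 1000000 after TMM adjustment), given for replicates 1 and 2 of each genotype in that order, and a gene was called where edgeR's quasi-likelihood test gave a Benjamini-Hochberg adjusted p under 0.05 over all genes tested. Libraries held 24374587 to 28316016 counts, so 3 counts, taken as the floor of detection, corresponded to 0.107 to 0.12 CPM. The targeted gene Mettl3 was at 92.2 and 124 CPM in WT and 78.0 and 91.3 CPM in the knockout, with a log2 fold change of -0.35 (SE 0.19), and was not called (edgeR adjusted p = 0.357); whole-gene counts include exons outside a deleted part, so this level does not check the deletion itself. T cell and iNKT genes were abundant in every library: 13 of 13 were tested and their summed level was 6130 and 6885 CPM in WT and 6781 and 6534 CPM in the knockout. Of these edgeR called Cd5 higher and 0 lower, with 3 higher and 3 lower at an unadjusted p under 0.05, and DESeq2 called Cd5 and Zbtb16 higher and Cd3d and Cd3g lower. Cd5 was not called with WT replicate 1 or either knockout library left out. The 40 dendritic cell and macrophage genes together held 0.0244% and 0.0262% of counts in WT and 0.0916% and 0.0982% in the knockout. In bulk libraries a larger number of cells of a type and more RNA per cell cannot be told apart.

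Of the 40 genes, 37 passed the filter on low counts, 15 were called higher in the knockout and 0 were called lower. Over all 14185 genes tested, 1.09% were called higher, 1.51% lower and 2.59% in either direction; nothing is read from the difference, because the contrast was used to choose the genes. All 11 genes known beforehand were among the 15, and the other 4 were Clec10a, Sirpa, Ctsh and Cd83. At an unadjusted p under 0.05 edgeR placed 24 of the 37 higher and 1, Irf8, lower, DESeq2 called 18 higher and Irf8 lower, and limma voom called 8 higher and 0 lower. Over all 14185 genes DESeq2 called 665 higher and 676 lower. No share over all genes is given for the unadjusted p or limma voom. Nothing is therefore read from those counts, here or for the comparison lists. The median log2 fold change of the 37 was 2.33, against 0.0163 for all genes tested. Both knockout libraries lay above both WT libraries for 29 of the 40 genes, below them for 4 (Irf8, Fcgr3, Cst3 and Ifi30), and overlapped them for 7; over all genes tested 25.3% lay above, 24.9% below and 49.7% overlapped. With 1 library left out, 5 to 7 of the genes were called higher: 5 where a WT library was left out, 7 where knockout replicate 1 and 6 where knockout replicate 2 was left out. Tyrobp and Itgam, which nearly all macrophages express, had at most 14 counts in any library. Itgam shares 3450 exonic bases with Gm49368 on the same strand, so its reads may not all be counted. Other genes of these cells, Spi1, Cd68, Cd14, Adgre1 and Csf1r, were higher in both knockout libraries. The genes are therefore named here as a list and not as a cell type shown to be present.

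**Figure D1:**
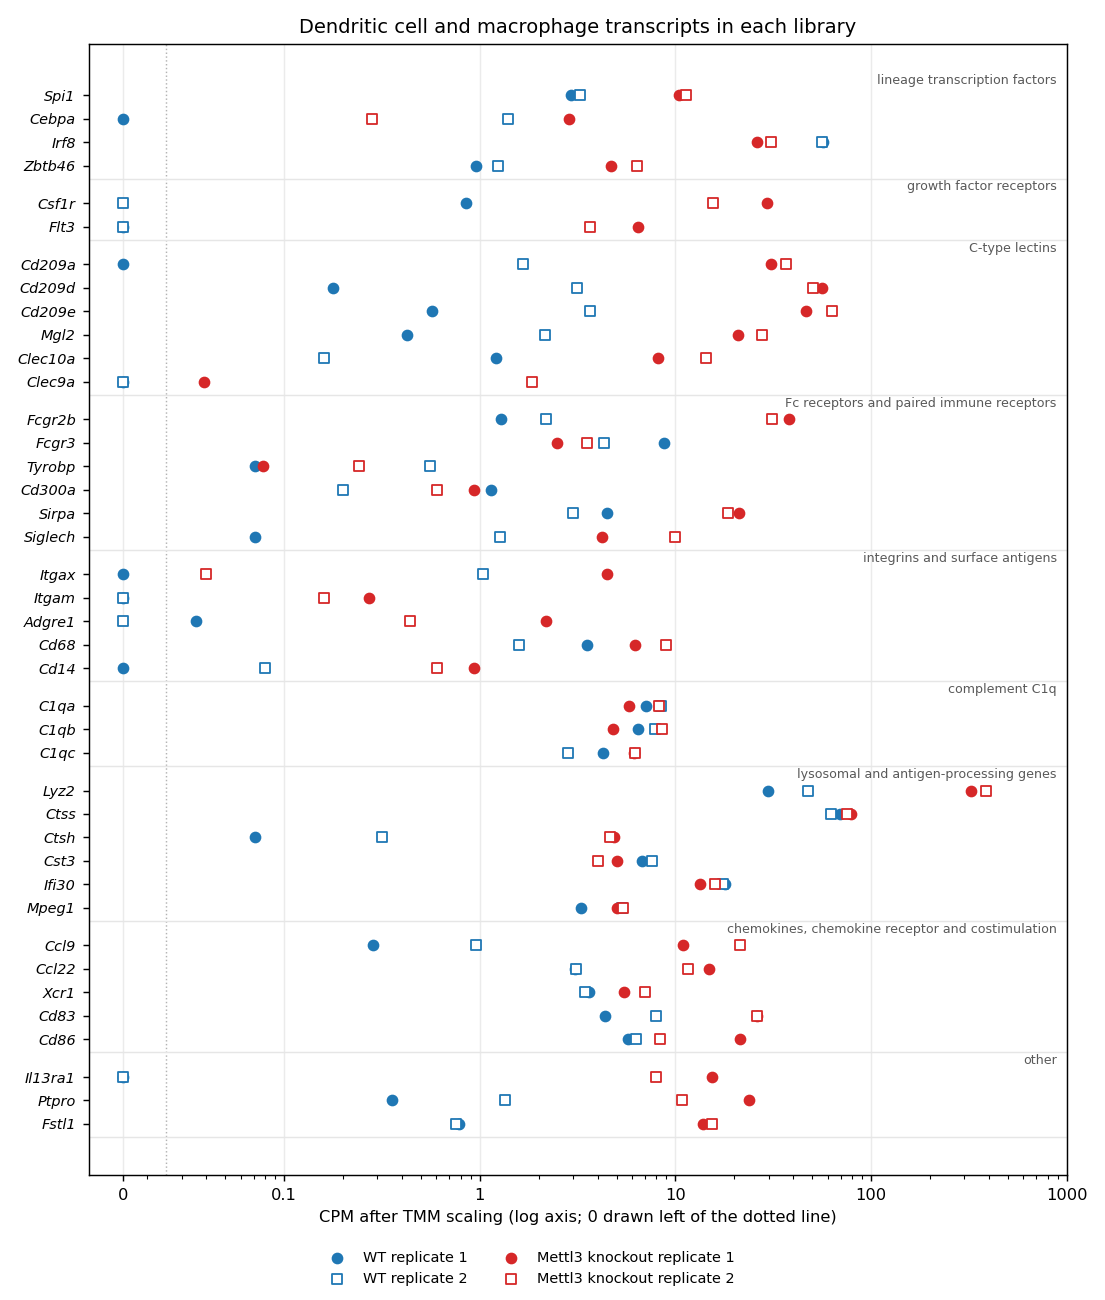
Level of each of the 40 genes (rows, grouped by role) in each of the 4 libraries, in CPM on a log axis, with blue for WT, red for the knockout, filled circles for replicate 1 and open squares for replicate 2. Lyz2 and the lectin genes Cd209a, Cd209d and Cd209e lie far to the right in the knockout, while C1qa, C1qb, Ctss and Mpeg1 lie at like levels in all 4 libraries.

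The genes did not share a common ratio between the genotypes, and the difference in their summed level came from few of them. In the mean of both libraries the sum was 258 CPM for WT and 931 CPM for the knockout. Lyz2 accounted for 47.0% of the difference and Cd209a, Cd209d and Cd209e together for 20.4%, and the remaining 36 genes went from a sum of 215 CPM to 435 CPM. These named genes were among the 11 known beforehand to be higher, so the uneven split follows at least in part from how the list was made. The 11 summed to 34.3 and 63.4 CPM in WT and 610 and 666 CPM in the knockout. The 29 genes not described as higher beforehand summed to 212 and 207 CPM in WT and 293 and 293 CPM in the knockout. Per kilobase of exon, which allows levels of different genes to be compared, Ctss led in WT at 48.3 CPM per kb, ahead of Lyz2 at 29.3, Ifi30 at 18.1, Irf8 at 8.00 and C1qa at 7.46 CPM per kb. In the knockout Lyz2 led at 269.6 CPM per kb, ahead of Cd209d at 58.1, Ctss at 56.8, Cd209e at 30.5 and Cd209a at 21.4 CPM per kb.

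**Figure D2:**
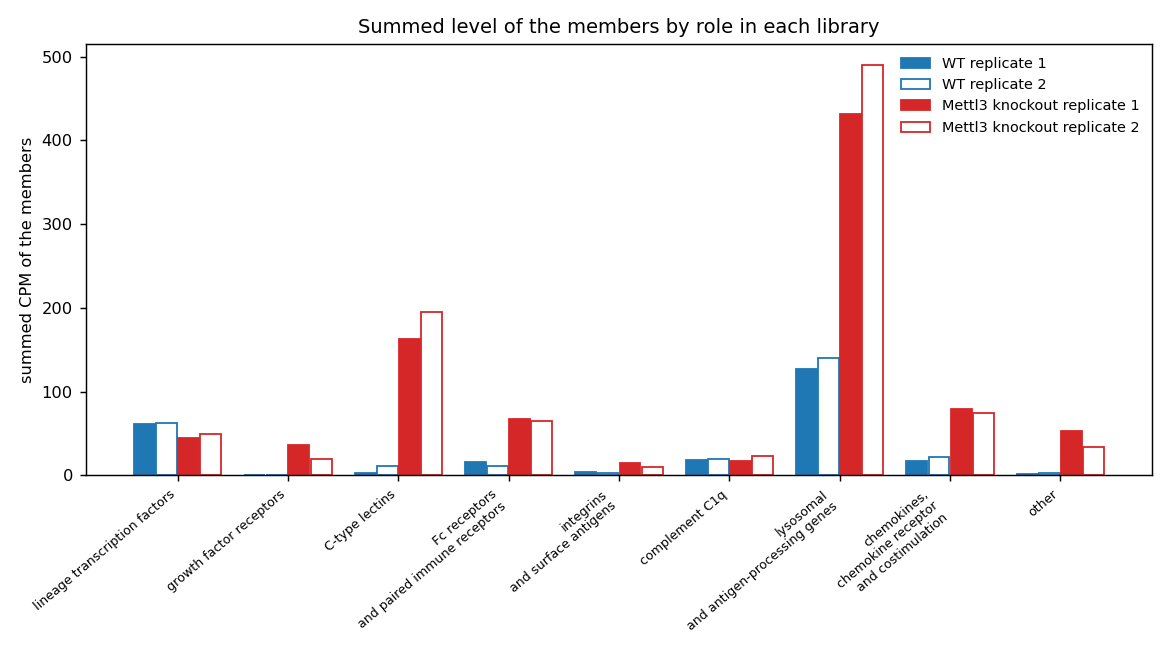
Summed CPM of the genes of each role (bars start at 0) in WT (blue) and knockout (red) libraries, filled for replicate 1 and open for replicate 2. The sum of the 6 lectin genes goes from 2.38 and 10.8 CPM in WT to 163 and 195 CPM in the knockout, and that of the 3 C1q genes stays between 16.8 and 23.1 CPM in all 4 libraries.

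C-type lectins were scarce in WT and far more abundant in the knockout. Of the 6 lectin genes 5 were tested and all 5 were called higher. All of these 5 but Clec10a were among the 11 known beforehand to be higher. CD209a, CD209d and CD209e are mouse relatives of human DC-SIGN, a receptor that binds sugars on microbes and self glycoproteins. Cd209a (ENSMUSG00000031494.7; GRCm38 chr8:3743397-3748984, minus strand) was at 0 and 1.67 CPM in WT and 30.8 and 36.9 CPM in the knockout. Cd209d (ENSMUSG00000031495.8; GRCm38 chr8:3871824-3878555, minus strand) was at 0.178 and 3.14 CPM in WT and 56.4 and 50.5 CPM in the knockout, and Cd209e (ENSMUSG00000040197.4; GRCm38 chr8:3847965-3854309, minus strand) at 0.569 and 3.66 CPM in WT and 46.3 and 63.5 CPM in the knockout. For each of them both knockout libraries were far above both WT libraries, and WT replicate 2 was above WT replicate 1. The log2 fold changes were 5.41 (SE 0.60), 5.08 (SE 0.49) and 4.75 (SE 0.48). DESeq2 and limma voom called Cd209d and Cd209e but not Cd209a. Cd209d and Cd209e were called whichever library was left out, and Cd209a was not without knockout replicate 2, at a log2 fold change of 5.27. Without WT replicate 2 the log2 fold changes were 8.19 for Cd209d and 6.58 for Cd209e, and Cd209a, then with no WT count, was at least 317.7-fold higher against a floor of 3 counts per library. Leaving out WT replicate 1 instead gave 4.33 for Cd209a, 4.08 for Cd209d and 3.89 for Cd209e.

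The 3 lectin genes lie in a tandem cluster, Cd209a and Cd209e 99.0 kb apart and Cd209e and Cd209d 17.5 kb apart. Of 4 other Cd209 genes, 0 passed the filter: Cd209f and Cd209g had no count in any library, Cd209b had 0 and 0 counts in WT and 33 and 0 counts in the knockout and Cd209c 0 and 0 counts in WT and 0 and 13 counts in the knockout. Cd209a, Cd209d and Cd209e, all known beforehand to be higher, reached like levels in the knockout, and the other Cd209 genes did not. The sequence upstream of their 3 RefSeq start sites is shown (RefSeq, GRCm38.p6, minus strand, 5′ to 3′), without bases inside the GENCODE gene model. Capitals mark a match, on either strand, to the composite element bound jointly by PU.1 and an IRF factor such as IRF8 or IRF4, searched as GGAA, then NN, then GAAA:
Cd209a, 250 bases at chr8:3748985-3749234: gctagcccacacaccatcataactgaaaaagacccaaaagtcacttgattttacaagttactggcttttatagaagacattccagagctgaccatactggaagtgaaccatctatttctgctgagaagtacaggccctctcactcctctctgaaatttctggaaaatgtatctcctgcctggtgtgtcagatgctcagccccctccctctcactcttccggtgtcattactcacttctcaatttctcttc
Cd209d, 194 bases at chr8:3878556-3878749: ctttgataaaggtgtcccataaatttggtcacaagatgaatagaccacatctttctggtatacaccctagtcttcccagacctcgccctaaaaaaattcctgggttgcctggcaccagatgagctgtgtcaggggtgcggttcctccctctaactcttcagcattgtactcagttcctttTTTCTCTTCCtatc
Cd209e, 227 bases at chr8:3854310-3854536: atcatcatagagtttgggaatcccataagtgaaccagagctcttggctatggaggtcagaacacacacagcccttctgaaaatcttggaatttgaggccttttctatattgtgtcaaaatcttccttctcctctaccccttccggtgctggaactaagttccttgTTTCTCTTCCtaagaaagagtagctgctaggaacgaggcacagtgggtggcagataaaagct
Cd209d and Cd209e held the same 10 bases, TTTCTCTTCC, 70 to 61 and 85 to 76 bases before their RefSeq starts. Cd209a held no match inside its window. That window ends in TTTCTCTTC, which lacks only the last of these 10 bases, and the next base was not searched. A match across its edge is therefore not excluded. The element shares the letters GGAA with the plain PU.1 motif, so 1 stretch can match both. Over the 250 bases before the start, 2.3% of the 32851 promoters in the RefSeq table held this element, as did 3 of the 31 promoters found for 29 of the 40 genes, those of Cd209d, Cd209e and Fcgr2b. A plain PU.1 motif, GAGGAAG on either strand, was in 10.6% of all promoters and in 5 of the 31. A C/EBP motif, TTGCNNAA on either strand, was in 9.56% of all promoters and in 6 of the 31. None of these PU.1 and C/EBP matches lay before the 10 called genes that had a promoter to search. The called genes Csf1r, Clec10a, Sirpa, Ctsh and Cd83 had no promoter to search. With so few promoters nothing is read from this. A match describes the letters in the window and not a bound site.

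Mgl2 and Clec10a, neighbours 18.6 kb apart, encode the galactose-type lectins of macrophages and cDC2 cells. Mgl2 (ENSMUSG00000040950.13; GRCm38 chr11:70130329-70137550, plus strand) was at 0.426 and 2.15 CPM in WT and 21.0 and 27.7 CPM in the knockout, and Clec10a at 1.21 and 0.159 CPM in WT and 8.11 and 14.3 CPM in the knockout. Both knockout libraries were above both WT libraries for each gene, and the WT libraries differed in opposite senses, Mgl2 being higher in replicate 2 and Clec10a in replicate 1. Their log2 fold changes were 4.29 (SE 0.55) and 3.96 (SE 0.76). Of the 50-base words in their transcripts, 13.1% for Mgl2 and 9.02% for Clec10a also occurred in other genes, mainly in each other, so part of their reads could be assigned to either. Mgl2 was called only without knockout replicate 1; its log2 fold change was 4.48 there, 3.49 and 5.82 with WT replicate 1 or 2 left out and 4.07 with knockout replicate 2 left out. Clec10a was not called without any library, at 6.08 and 3.20 without WT replicates 1 and 2 and 4.31 and 3.50 without knockout replicates 1 and 2. Clec9a, the receptor by which cDC1 cells sense dead cells, was at 0 and 0 counts in WT and 1 and 46 counts in the knockout, nearly all in knockout replicate 2, and was not tested.

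Among lysosomal and antigen-processing genes 2 of 6 tested were called higher, and 4 were not called. Lyz2 (ENSMUSG00000069516.8; GRCm38 chr10:117277331-117282321, minus strand), which encodes the lysozyme of macrophages and many other myeloid cells, was the most abundant of the 40 in the knockout, at 29.6 and 47.5 CPM in WT and 324 and 385 CPM in the knockout. Both knockout libraries were far above both WT libraries, with means of 355 ± 43.1 against 38.5 ± 12.7 CPM (SD, n = 2) and a log2 fold change of 3.21 (SE 0.21), and Lyz2 was called whichever library was left out. Leaving out WT replicate 1 gave a log2 fold change of 2.89 for Lyz2, and leaving out WT replicate 2 gave 3.58. Of its 50-base words 15.4% also occurred in Lyz1, which was at 2.35 and 0 CPM in WT and 0.815 and 5.45 CPM in the knockout. Ctsh, which encodes the protease cathepsin H, was at 0.0711 and 0.318 CPM in WT and 4.85 and 4.65 CPM in the knockout, with no overlap and a log2 fold change of 4.63 (SE 0.89); it was not called with any library left out, at 3.87, 5.97, 4.59 and 4.65 without WT replicates 1 and 2 and knockout replicates 1 and 2. Ctss, the protease cathepsin S that trims the invariant chain, was at 69.0 and 62.2 CPM in WT and 78.9 and 75.3 CPM in the knockout. The knockout libraries were slightly above WT, with a log2 fold change of 0.23 (SE 0.16) and an interval of -0.14 to 0.60 (95%). Cst3, the protease inhibitor cystatin C that is among the most abundant transcripts of dendritic cells, was at 6.72 and 7.56 CPM in WT and 5.05 and 4.01 CPM in the knockout, both knockout libraries lying below WT. Ifi30, the lysosomal thiol reductase GILT, was at 17.9 and 17.5 CPM in WT and 13.3 and 15.9 CPM in the knockout, and Mpeg1, the pore-forming protein of macrophages, at 3.31 and 5.33 CPM in WT and 5.05 and 5.37 CPM in the knockout. Ifi30 lay slightly lower in the knockout and Mpeg1 overlapped, and the 95% intervals of their log2 fold changes, -0.94 to 0.38 and -0.87 to 1.45, like that of Cst3, -1.68 to 0.38, held 0.

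None of the complement C1q genes, which tissue macrophages express strongly and which encode the 3 chains of a protein that binds dying cells, was called. They lie side by side on chromosome 4, within 136880129 to 136898803 (GRCm38). C1qa was at 7.04 and 8.47 CPM in WT and 5.82 and 8.26 CPM in the knockout, C1qb at 6.47 and 7.84 CPM in WT and 4.81 and 8.58 CPM in the knockout and C1qc at 4.26 and 2.82 CPM in WT and 6.13 and 6.25 CPM in the knockout. The genotypes overlapped for C1qa and C1qb, and for C1qc both knockout libraries were above WT. edgeR called 0 of the 3, 0 passed at an unadjusted p under 0.05, and DESeq2 and limma voom called 0. The 95% intervals of the log2 fold changes were -1.10 to 0.83 for C1qa, -1.16 to 0.97 for C1qb and -0.34 to 1.92 for C1qc. Each of them held 0.

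Receptors for the growth factors of both lineages were near 0 in WT and present in the knockout. Csf1r, which encodes the receptor of the cytokines CSF1 and IL-34, was at 0.853 and 0 CPM in WT and 29.5 and 15.6 CPM in the knockout, and Flt3, the receptor for the dendritic cell growth factor FLT3 ligand, at 0 and 0 CPM in WT and 6.44 and 3.65 CPM in the knockout. For both genes knockout replicate 1 was the higher of the knockout libraries and neither WT library reached 1 CPM. The log2 fold change of Csf1r was 5.64 (SE 0.82), and it was called; it was called again only without knockout replicate 2, at 6.02, and was at 4.72 without WT replicate 2 and 5.10 without knockout replicate 1. Without WT replicate 1, which held all its WT counts, Csf1r was at least 189-fold higher against a floor of 3 counts. DESeq2 and limma voom did not call Csf1r. Csf1r shares 873 exonic bases with Hmgxb3 on the opposite strand, and without strand the reads there cannot be told apart. Flt3, with no WT count, was at least 44.7-fold higher against 3 counts per WT library, and edgeR did not call it while DESeq2 did.

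No lineage transcription factor of the 4 was called by edgeR, although 2 were higher and 1 lower at an unadjusted p under 0.05, and DESeq2 called those 3 in the same directions; limma voom called 0. With genes limited to those of at least 5 CPM in 2 libraries, edgeR called Spi1 higher and Irf8 lower. Spi1 (ENSMUSG00000002111.8; GRCm38 chr2:91082390-91115756, plus strand), which encodes PU.1, was at 2.91 and 3.26 CPM in WT and 10.5 and 11.4 CPM in the knockout, with both knockout libraries above WT. Zbtb46, which marks conventional dendritic cells, was at 0.960 and 1.23 CPM in WT and 4.66 and 6.33 CPM in the knockout, likewise without overlap. Irf8, which cDC1 and plasmacytoid dendritic cells need and which lymphocytes also express, was at 56.8 and 56.1 CPM in WT and 26.0 and 30.9 CPM in the knockout. Both knockout libraries were below WT for Irf8. The log2 fold changes were 1.83 (SE 0.43) for Spi1, 2.33 (SE 0.64) for Zbtb46 and -0.99 (SE 0.20) for Irf8. Cebpa, the C/EBPα factor of myeloid progenitors, had 0 and 35 counts in WT and 74 and 7 counts in the knockout, which overlapped.

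Fc receptors and paired immune receptors did not share a direction: 2 of 5 tested were called higher, and Fcgr3 was lower in both knockout libraries. Fcgr2b (ENSMUSG00000026656.15; GRCm38 chr1:170958617-170976547, minus strand), the inhibitory Fc receptor carried by B cells and myeloid cells, was at 1.28 and 2.19 CPM in WT and 38.0 and 31.3 CPM in the knockout, and Fcgr3, an activating Fc receptor also found on natural killer cells, at 8.78 and 4.33 CPM in WT and 2.48 and 3.53 CPM in the knockout. The genes lie 74.6 kb apart. For Fcgr2b both knockout libraries were far above WT, and for Fcgr3 both were below WT. The log2 fold changes were 4.34 (SE 0.41) and -1.15 (SE 0.58); Fcgr2b was called whichever library was left out, at 3.97 to 4.75, and Fcgr3 was not called. Fcgr2b shares 155 exonic bases with the antisense gene Gm38204, where reads cannot be told apart. Of their 50-base words, 6.95% for Fcgr2b and 9.58% for Fcgr3 also occurred in other genes, each in the other among them, so part of their reads could be assigned to either. B cell genes were higher in sum in the knockout as well: 9 of 12 were tested, 0 were called by edgeR, DESeq2 or limma voom, 2 (Ms4a1 and Fcer2a) were higher at an unadjusted p under 0.05, and their summed level was 12.4 and 21.0 CPM in WT and 40.4 and 31.7 CPM in the knockout. Of the defining B cell genes Pax5 was at 0 in all 4 libraries and Cd79a was at 2.38 and 3.14 CPM in WT and 7.84 and 5.01 CPM in the knockout. Their part in the Fcgr2b level was not tested. Sirpa, the SIRPα receptor that binds CD47, was at 4.48 and 2.98 CPM in WT and 21.1 and 18.6 CPM in the knockout, without overlap and with a log2 fold change of 2.40 (SE 0.38). It was called, but not with any library left out, at 2.72 and 2.14 without WT replicates 1 and 2 and 2.30 and 2.48 without knockout replicates 1 and 2. Siglech, the defining receptor of plasmacytoid dendritic cells, was at 0.0711 and 1.27 CPM in WT and 4.23 and 9.90 CPM in the knockout; the groups did not overlap, but knockout replicate 2 was well above replicate 1, and edgeR did not call it while DESeq2 did. Tyrobp, the DAP12 adaptor that nearly all myeloid cells express, was close to the floor in every library, at 2 and 14 counts in WT and 2 and 6 counts in the knockout, and was not tested. Cd300a, an inhibitory receptor, was at 1.14 and 0.199 CPM in WT and 0.932 and 0.601 CPM in the knockout, which overlapped.

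Integrins and surface antigens that define macrophages and dendritic cells were low. Itgax, which encodes CD11c of dendritic cells, had 0 and 26 counts in WT and 115 and 1 counts in the knockout, almost all of the knockout counts coming from replicate 1, and the groups overlapped. Itgam, which encodes CD11b, had 0 and 0 counts in WT and 7 and 4 counts in the knockout and was not tested, and 66.3% of its 50-base words also occur in the overlapping gene Gm49368. Adgre1, which encodes the macrophage antigen F4/80, had 1 and 0 counts in WT and 56 and 11 counts in the knockout, and Cd14, a receptor for bacterial lipopolysaccharide, 0 and 2 counts in WT and 24 and 15 counts in the knockout. Both lay at or below 3 counts in each WT library. Cd68, a lysosomal glycoprotein of macrophages, was at 3.52 and 1.59 CPM in WT and 6.21 and 8.98 CPM in the knockout, without overlap. edgeR called 0 of the 4 tested, 3 of which (Adgre1, Cd68 and Cd14) were higher at an unadjusted p under 0.05, and DESeq2 and limma voom called 0.

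Chemokines and costimulatory molecules included 2 called genes of 5 tested, and for all 5 both knockout libraries were above both WT libraries. Ccl9, a chemokine that attracts dendritic cells, was at 0.284 and 0.955 CPM in WT and 11.0 and 21.4 CPM in the knockout, and Cd83, a surface molecule of mature dendritic cells that lymphocytes also carry, at 4.37 and 8.00 CPM in WT and 26.2 and 26.2 CPM in the knockout. The knockout libraries were alike for Cd83, and knockout replicate 2 was the higher for Ccl9. The log2 fold changes were 4.73 (SE 0.75) and 2.10 (SE 0.35). Ccl9 was called only without knockout replicate 1, at 5.14, and was at 4.06, 5.80 and 4.18 without WT replicates 1 and 2 and knockout replicate 2; Cd83 was not called with any library left out, at 1.70, 2.58, 2.10 and 2.09 without WT replicates 1 and 2 and knockout replicates 1 and 2. Ccl22, a chemokine of mature dendritic cells that binds CCR4, was at 3.06 and 3.10 CPM in WT and 14.9 and 11.7 CPM in the knockout and was not called, with a log2 fold change of 2.11 (SE 0.43); DESeq2 called it. Cd86, a ligand of CD28, was at 5.76 and 6.28 CPM in WT and 21.4 and 8.34 CPM in the knockout, knockout replicate 1 standing far above the other libraries. Xcr1, the chemokine receptor of cDC1 cells, was at 3.62 and 3.46 CPM in WT and 5.43 and 6.97 CPM in the knockout and was not called, at a log2 fold change of 0.80 (SE 0.48).

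The remaining 3 genes were all called higher, and all 3 were among the 11 known beforehand to be higher. Il13ra1, a receptor chain for IL-4 and IL-13, was at 0 and 0 CPM in WT and 15.4 and 7.98 CPM in the knockout, and with no WT count it was at least 103-fold higher against 3 counts per WT library. Ptpro, a receptor tyrosine phosphatase, was at 0.355 and 1.35 CPM in WT and 23.8 and 10.8 CPM in the knockout, and Fstl1, a secreted follistatin-like glycoprotein, at 0.782 and 0.756 CPM in WT and 13.8 and 15.3 CPM in the knockout. None overlapped, and knockout replicate 1 was the higher for Il13ra1 and Ptpro, while both genotypes were tight for Fstl1. The log2 fold changes of Ptpro and Fstl1 were 4.38 (SE 0.77) and 4.23 (SE 0.54). Ptpro was called only without knockout replicate 2, at 4.83, and was at 3.67, 5.59 and 3.70 without WT replicates 1 and 2 and knockout replicate 1. Fstl1 was not called with any library left out, at 4.25, 4.20, 4.31 and 4.15 without WT replicates 1 and 2 and knockout replicates 1 and 2, nor was Il13ra1, which had no WT count in any of these fits.

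**Figure D3:**
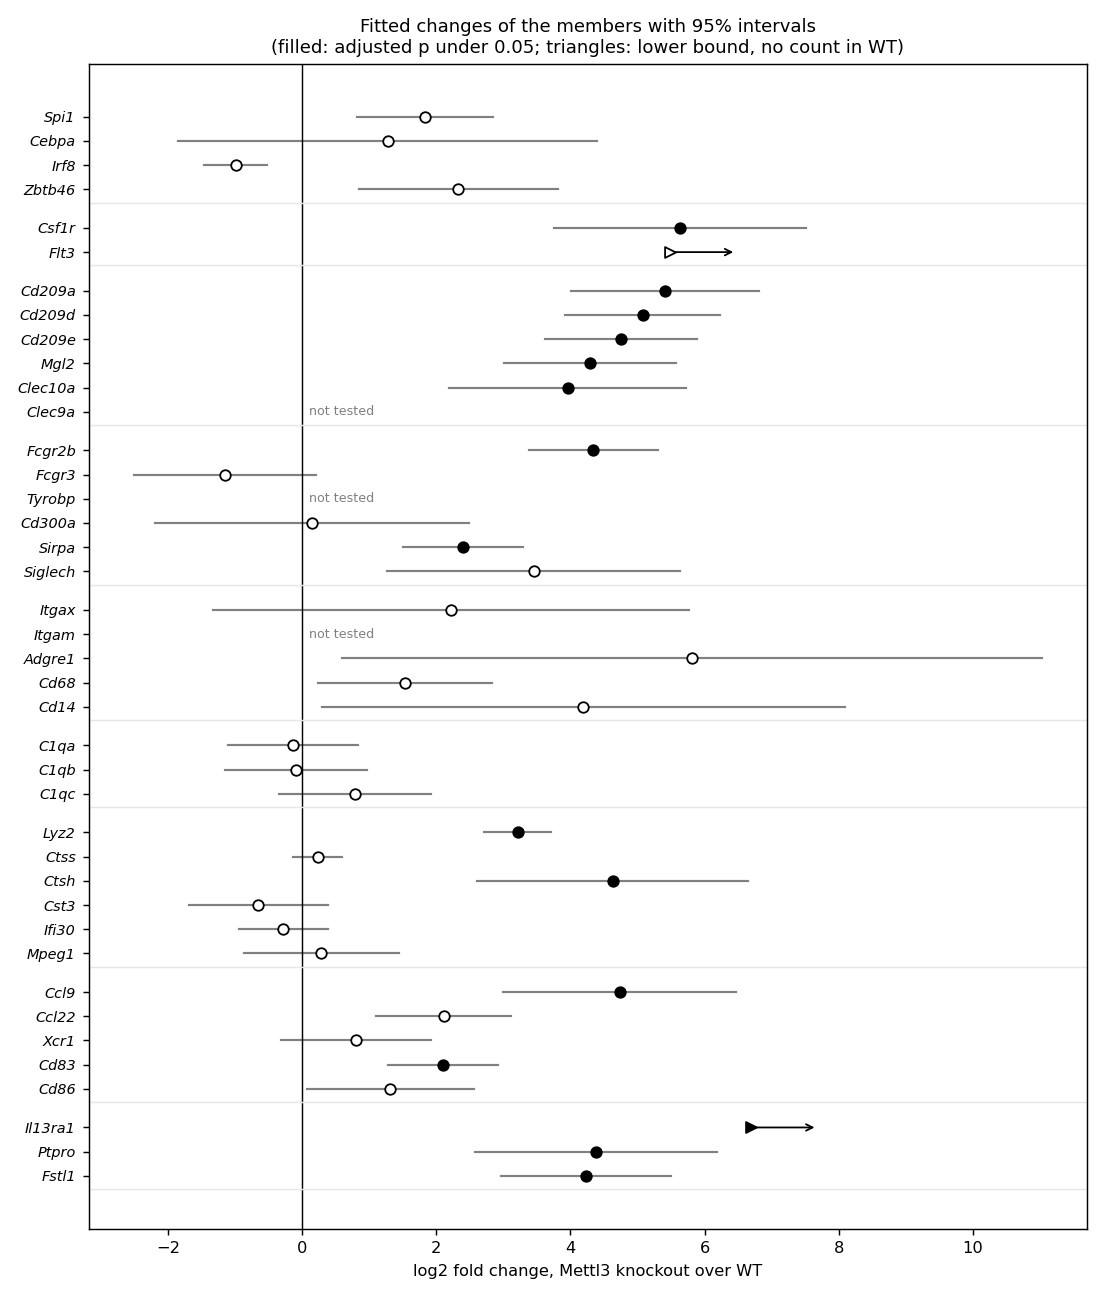
Log2 fold change of the knockout over WT for each gene with its 95% interval, filled where the adjusted p was under 0.05, in the same order as the plot of levels. Triangles with arrows are lower bounds for Flt3 and Il13ra1, which had no WT count; the intervals of C1qa, C1qb, Ctss, Cst3, Ifi30 and Mpeg1 cross 0, and those of the lectin genes lie wholly above 2.

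The libraries of a genotype also differed. Of the 15 called genes 10 were higher in WT replicate 2 than in WT replicate 1, and 7 were higher in knockout replicate 2 than in knockout replicate 1. Lyz2, Cd209a, Cd209d, Cd209e and Mgl2 were all higher in WT replicate 2. In the knockout, replicate 1 held more Csf1r, Flt3, Il13ra1, Ptpro, Cd86, Itgax, Cebpa and Adgre1, and replicate 2 more Clec9a, Siglech and Ccl9. MHC class II genes, outside the 40, had a summed level of 161 and 305 CPM in WT and 2294 and 2444 CPM in the knockout, and 6 of 10 were called higher (H2-Aa, H2-Ab1, H2-Eb1, Cd74, H2-DMb1 and H2-DMb2). With WT replicate 1 or WT replicate 2 left out 5 of the 10 were called, with knockout replicate 1 left out 3, with knockout replicate 2 left out 2, and under the replicate block 3. Whether the same cells hold both was not tested.

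Among dendritic cell genes outside the 40, the cDC2, activated and plasmacytoid lists each held 1 gene called higher and the cDC1 list 0, beside 1.09% of all genes tested. Of 6 cDC1 genes 5 were tested and edgeR, DESeq2 and limma voom called 0, with 1 higher (Cadm1) and 1 lower (Tlr3) at an unadjusted p under 0.05. Naaa, a lysosomal amidase, was the most abundant of these at 20.1 and 24.0 CPM in WT and 17.2 and 20.8 CPM in the knockout. Wdfy4, needed for cross-presentation, was at 0 and 1.47 CPM in WT and 1.75 and 1.48 CPM in the knockout. Batf3, the transcription factor of cDC1 cells, had 0 and 0 counts in WT and 1 and 1 counts in the knockout. Of 6 cDC2 genes 4 were tested and 1, the transcription factor Irf4, rose, from 28.6 ± 0.593 to 78.1 ± 0.470 CPM (SD, n = 2; log2 fold change 1.45 (SE 0.18), edgeR adjusted p = 0.0101). Activated T cells also express Irf4, and Clec4a4, a defining cDC2 lectin, had no count in any library. Among 8 genes of activated dendritic cells 5 were tested and Fscn1, which encodes the actin-bundling protein fascin, rose from 4.15 ± 1.05 to 31.6 ± 1.80 CPM (SD, n = 2; log2 fold change 2.94 (SE 0.33), edgeR adjusted p = 0.00807). Ccl17, a chemokine of the same cells, had 2 and 0 counts in WT and 0 and 0 counts in the knockout. Among 8 plasmacytoid dendritic cell genes 6 were tested and Tcf4, the E protein E2-2, rose from 8.02 ± 2.73 to 38.1 ± 5.78 CPM (SD, n = 2; log2 fold change 2.23 (SE 0.32), edgeR adjusted p = 0.0173). None of these 3 genes passed with a library left out: adjusted p was 0.0571, 0.0718, 0.0857 and 0.0911 for Irf4, 0.0571, 0.0532, 0.0673 and 0.0561 for Fscn1, and 0.061, 0.111, 0.115 and 0.0793 for Tcf4, by edgeR without WT replicates 1 and 2 and knockout replicates 1 and 2.

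No macrophage gene outside the 40 was called, beside 1.09% called higher and 1.51% lower of all genes tested. Of 18 such genes 10 were tested and edgeR, DESeq2 and limma voom called 0, with 1, the scavenger receptor gene Cd163, higher at an unadjusted p under 0.05 (1.42 and 0.0398 CPM in WT and 5.75 and 5.85 CPM in the knockout); their median log2 fold change was 0.10 and their summed level 77.2 and 82.7 CPM in WT and 78.7 and 88.8 CPM in the knockout. Apoe, a lipid carrier, was the most abundant at 26.8 and 30.1 CPM in WT and 29.5 and 33.6 CPM in the knockout. Axl, a receptor for dying cells, was at 22.9 and 26.2 CPM in WT and 15.8 and 18.5 CPM in the knockout. Hmox1 was at 11.3 and 15.5 CPM in WT and 14.9 and 7.78 CPM in the knockout. Apoe, Axl and Hmox1 made up most of the summed level in every library, so the sum says little of the other genes. Mrc1 was at 0.675 and 2.39 CPM in WT and 5.09 and 3.73 CPM in the knockout, without overlap. Over the 18 genes both knockout libraries lay above both WT libraries for 3, below them for 1, and overlapped them for 14. Over all genes tested these shares were 25.3%, 24.9% and 49.7%. Of the 18 genes 8 were not tested, and the 4 with no count in any library could only overlap. Nothing is therefore read from the 14. Marco, Cd5l, Vsig4 and Msr1, receptors of tissue macrophages, had no count in any library, Mertk had 1 and 0 counts in WT and 0 and 0 counts in the knockout, and the Fc receptor gene Fcgr1 had 0 and 0 counts in WT and 0 and 3 counts in the knockout. Across 55 genes of monocytes, neutrophils, mast cells and basophils, erythroid cells, platelets and thymic epithelium and stroma, 25 were tested and edgeR called 0; 8 were higher and 3 lower at an unadjusted p under 0.05, DESeq2 called 5 higher (Cx3cr1, Ms4a6c, Itgb3, Aire and Pecam1) and 0 lower, and limma voom called 0. CD4+CD8+ thymocyte genes, 9 of 9 tested, summed to 818 and 947 CPM in WT and 1339 and 1219 CPM in the knockout; edgeR and limma voom called 0, 5 were higher and 1 lower at an unadjusted p under 0.05, and DESeq2 called 5 higher (Rag1, Dntt, Cd8a, Cd8b1 and Cd4). No test of a difference between these lists and the 40 genes was made.

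**Figure D4:**
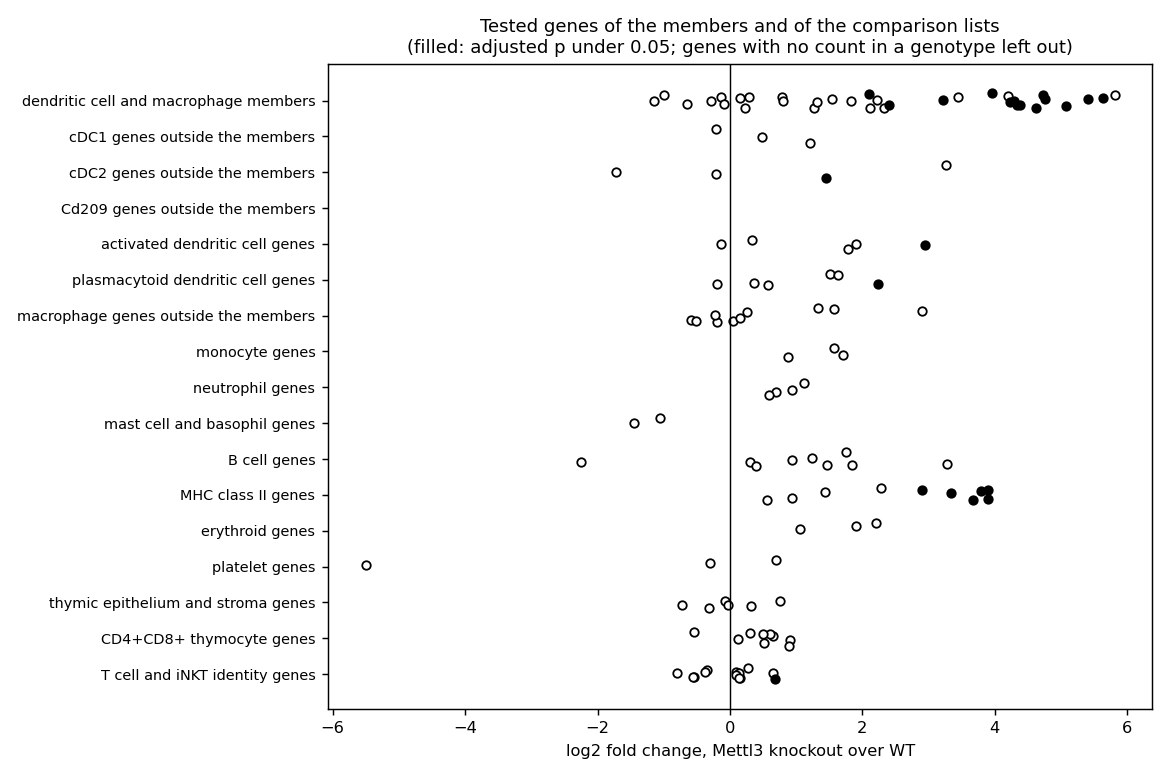
Log2 fold change of each tested gene of the 40 and of 16 comparison lists (rows), filled where the adjusted p was under 0.05; genes with no count in a genotype are left out, and points are spread vertically for visibility. Called genes lie in the top row, in the MHC class II row, and singly in the cDC2, activated dendritic cell, plasmacytoid dendritic cell and T cell rows (Irf4, Fscn1, Tcf4 and Cd5).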

How the data were processed

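RNA was measured in 4 libraries of sorted iNKT cells. The authors deposited raw read counts as whole numbers, 1 column for each library, over 53715 Ensembl gene IDs that carry versions. The submitters' processing notes name FastQC 0.11.5, STAR 2.6.0a, HTSeq 0.6.1, DESeq2 1.18.1 and mm10; their uses, the annotation release and any strand setting were not given in the sources used here. A gene name table gave a symbol for 53620 IDs, and GENCODE M21 (GRCm38) gave positions and exon lengths (union of exons).

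In R 4.3.3, genes kept by filterByExpr were scaled by TMM (factors 0.97 to 1.02) and tested with edgeR 4.0.16. The test used glmQLFit and glmQLFTest (robust, two-sided, no covariate, 2 residual degrees of freedom). The fit was also run on counts simulated with the spread estimated from these libraries. That run cannot check whether the model suits the libraries themselves. The SE was obtained from the log2 fold change and the F statistic (its size over √F). A gene with no WT count is given as a bound at 3 counts per library. The floor covers counting error only: these reads carry no molecular identifiers, so they are not independent molecules. Depth was 24374587 to 28316016 counts. The labels number the libraries of a genotype as replicates; their counts were not identical and differed beyond counting noise (chi-square per gene 42.5 for WT, 27.0 for the knockout), which repeat preparations of 1 sample could also do.

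The 40 genes and the 16 comparison lists were chosen with earlier results of these data known. All 40 are named; called genes and those of 10 CPM or more in a genotype mean are given by library, others by level or count, and from each comparison list described singly the called genes or up to 2 of the most abundant. Defining genes near 0, Mrc1, Hmox1, genes named for their unadjusted p or DESeq2 call, and those in the closing observations were chosen after their values were seen. Alternatives were other scalings, DESeq2 1.42.0, limma 3.58.1 voom, other filters, a replicate block and leaving out each library; in the last, a lone library is assumed to vary like the other genotype's. Sequence upstream of start sites came from RefSeq (GRCm38.p6), and shared 50-base words from GENCODE transcripts.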

Additional observations from a re-analysis of the deposited data

How the results depend on the processing

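The 15 calls among the 40 genes depended on the test and on each library, and the median less so. RLE scaling gave 15 higher genes, total-count scaling 16, no low-count filter 13, and at least 5 CPM in 2 libraries 16 of 27 tested with 1 lower. DESeq2 gave 18 higher and 1 lower, and limma voom 8 higher. Of the 15, DESeq2 did not call Cd209a and Csf1r. Limma voom did not call these, nor Clec10a, Ctsh, Ccl9, Il13ra1 and Ptpro. With 1 library left out 5 to 7 were called higher and 0 lower, and the median log2 fold change was 2.20 to 3.39, the highest value without WT replicate 2, against 2.33; the cause was not tested. Cd209d, Cd209e, Fcgr2b and Lyz2 were called in each of the 4 fits with a library left out. No called gene of the 40 changed sign under any alternative. Over all genes the counts of 154 higher and 214 lower became 665 and 676 with DESeq2, 335 and 392 at 5 CPM in 2 libraries, 93 higher with no filter, and 13 to 40 higher and 26 to 132 lower with a library left out. Comparison lists held 10 genes called higher and 0 lower, against 23 and 2 with DESeq2, 1 lower at 5 CPM in 2 libraries, and 2 to 7 higher and 0 to 1 lower with a library left out.

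The replicate block, which the labels do not support as a pairing, left 7 higher and 26 lower genes in all, 3 of the 40 genes (Lyz2, Cd209d and Cd209e) and 3 genes of the comparison lists, with 1 residual degree of freedom. Same-numbered libraries did not deviate together (Pearson r = -0.0125 over 14185 genes). Depth limits statements on Tyrobp, Itgam, Clec9a, Cd14, Adgre1 and Itgax, which had few counts in most libraries. For Itgam the overlap with Gm49368 is a further limit.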

Other observations

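Some genes outside the 40 differed between same-genotype libraries. The neutrophil granule gene Ngp was at 0.497 and 7.16 CPM in WT and 2.02 and 9.98 CPM in the knockout. Ltf, another granule gene, was at 0.142 and 4.53 CPM in WT and 1.40 and 7.21 CPM in the knockout. Both were higher in replicate 2 of both genotypes. Of the neutrophil surface genes, Ly6g and Csf3r had no count in any library. Cxcr2 had 23 and 0 counts in WT and 0 and 5 counts in the knockout. Apol7c, a gene of activated dendritic cells, was at 1.53 and 5.41 CPM in WT and 1.48 and 4.73 CPM in the knockout, likewise higher in replicate 2 of both genotypes.

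Tlr3, the endosomal receptor for double-stranded RNA that cDC1 cells carry, and Treml4, a receptor of monocytes and dendritic cells, were counted only in WT, with 35 and 12 counts for Tlr3 and 22 and 26 for Treml4. Neither was called by edgeR. Aire, the regulator of self-antigen expression in thymic epithelium, was counted only in the knockout, at 48 and 40 counts. The epithelial gene Psmb11 had no count in any library and Krt5 had 10 counts, all in WT replicate 1. For Aire, edgeR gave no call and DESeq2 did.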
